A study of Homo sapiens with 6 samples.

Results

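The sterol sensing and SREBP processing machinery was followed through 8 genes of the 81496 gene symbols in the expression table: SREBF1, SREBF2, SCAP, INSIG1, INSIG2, MBTPS1, MBTPS2 and RNF139. Each gene was taken by its symbol, and where a symbol had more than 1 probe set the brightest on average over the compared arrays was used. SCAP alone among the 8 had 2 probe sets. The genes were grouped by function and not by a change measured in these samples, though with earlier results of these data known.

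Total RNA was profiled on Clariom D arrays in a pair of human breast epithelial cell lines, with 3 biological replicates labelled for each line. The parent, MCF10.AT1, is labelled untreated and fluvastatin sensitive, belongs to the MCF10A progression series and is preneoplastic. MCF10.AT1-R was derived from it by growth in stepwise increased fluvastatin, a statin, which blocks the mevalonate pathway, at 1, 5 and up to 20 µM. MCF10.AT1-R is 1 selected derivative line, so resistance cannot be told apart from any other difference between it and its parent, and whether fluvastatin was present at harvest was not given in the sources used here. Arrays A01 to A03 hold MCF10.AT1 and arrays B02 to B04 hold MCF10.AT1-R.

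SREBPs are transcription factors made as precursors in the membrane of the endoplasmic reticulum. When that membrane is rich in sterols, INSIG proteins hold back the complex of SREBP with its escort SCAP. When sterols run low, SCAP carries SREBP in COPII vesicles to the Golgi, where the proteases S1P and S2P cut it in turn and free the part that enters the nucleus and switches on cholesterol and fatty acid synthesis, and INSIG1 itself. Arrays measure the RNA of these proteins, and neither the cleavage nor the location of SREBP was measured.

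Promoters of 7 of the 8 genes were taken from RefSeq (build GRCh38.p14), and that of RNF139 was left out. Of the 7, 3 are printed because they belong to the INSIG pair, the inhibitors of the pathway, and to SREBF2. Each run is the 250 bases before 1 annotated transcript start, 5′ to 3′. Capitals mark matches to 3 motifs, searched on both strands: the SRE-1 core TCACCCCAC, an SREBP element; the E-box TCACGTGA, which SREBPs and other basic helix-loop-helix factors can bind; and CCAAT, the element of NF-Y, a common partner of SREBPs.
INSIG1 promoter, chr7:155297628-155297877, + strand: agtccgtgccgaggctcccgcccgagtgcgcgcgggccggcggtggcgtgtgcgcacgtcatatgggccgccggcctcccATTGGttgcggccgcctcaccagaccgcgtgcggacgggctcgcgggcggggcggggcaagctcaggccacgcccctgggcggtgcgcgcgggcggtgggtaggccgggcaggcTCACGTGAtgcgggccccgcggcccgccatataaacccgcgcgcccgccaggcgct
SREBF2 promoter, chr22:41832855-41833104, + strand: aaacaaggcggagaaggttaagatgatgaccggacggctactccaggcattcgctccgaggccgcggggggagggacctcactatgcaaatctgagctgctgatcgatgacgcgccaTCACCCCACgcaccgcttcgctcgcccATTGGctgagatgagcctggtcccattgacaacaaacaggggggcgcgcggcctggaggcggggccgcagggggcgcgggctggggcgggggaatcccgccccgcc
INSIG2 promoter, chr2:118088221-118088470, + strand: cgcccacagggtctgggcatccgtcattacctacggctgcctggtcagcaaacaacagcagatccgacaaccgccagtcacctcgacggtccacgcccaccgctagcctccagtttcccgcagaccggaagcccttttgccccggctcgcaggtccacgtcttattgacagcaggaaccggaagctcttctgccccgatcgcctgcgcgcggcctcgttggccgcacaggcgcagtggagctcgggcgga

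The INSIG1 window held the E-box, at -56 to -49 from the start, and a reversed CCAAT. Over all 35116 RefSeq windows of this length, 0.854% held the E-box and 32.0% held CCAAT. The SREBF2 window held the SRE-1 core, found in 0.362% of the windows, and a reversed CCAAT. Neither of the 2 INSIG2 windows held these motifs, nor did those of SREBF1, SCAP, MBTPS1 and MBTPS2. The GC box GGGCGG, a site for SP1, was in the windows of INSIG1, INSIG2, SREBF1, SREBF2 and SCAP and in 42.6% of all windows. A match is a run of letters and not a measured binding site, and the windows cover the RefSeq starts listed, which for SREBF1 was 1 start.

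**Figure D1:**
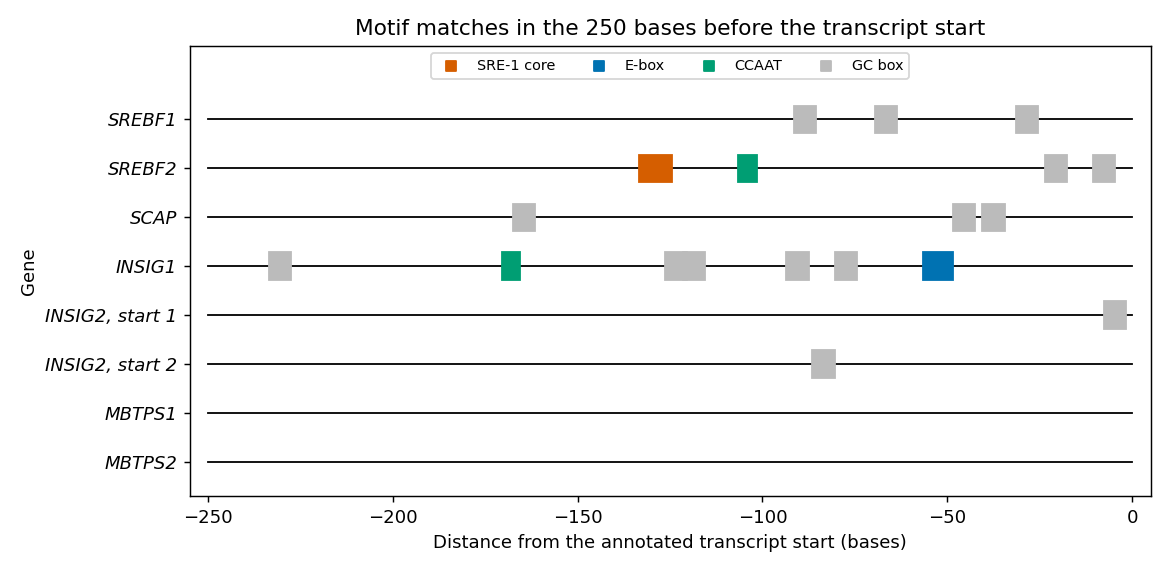
Motif matches on either strand in the 250 bases before the RefSeq transcript start of 7 genes, with distance from the start in bases on the horizontal axis and 1 line per start. The SRE-1 core appears on the line of SREBF2 and the E-box on that of INSIG1; MBTPS1 and MBTPS2 have no match.

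A03 stood apart and was left out of the tests, as the study's methods did. It correlated with the other arrays at 0.779 to 0.795 over transcript probe sets, against 0.967 to 0.977 among the other 5. The probe sets for GC-rich background averaged 5.38 on A03 and 3.82 to 4.24 on the others, on the log2 scale. All 8 genes read lower on A03 than on each of the 5 other arrays, and A03 minus the mean of A01 and A02 ran from -5.98 for SCAP to -2.37 for SREBF1. On the 5 compared arrays all 8 genes lay above 2.99, the 95th percentile of 612 negative control probe sets averaged over those arrays. Probes differ in how strongly they bind, so the level of one gene was not set against that of another.

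The comparison of the lines asked whether any step of sterol sensing and SREBP processing differed in RNA level between the resistant cells and their parent. Of the 8 genes, INSIG1 was the one with a clear separation, higher in MCF10.AT1-R by 0.88 on the log2 scale (1.83-fold), and INSIG2 and SREBF2 were also higher on every MCF10.AT1-R array. SREBF1 and MBTPS1 were lower on every MCF10.AT1-R array, and the arrays of SCAP, MBTPS2 and RNF139 overlapped. In limma 6 of the 8 genes were tested and 0 passed a false discovery rate of 5% (1 at an unadjusted p under 0.05), where 1.2% of 51457 probe sets did. When limma let the variance follow the level 1 passed, INSIG1 (4 at an unadjusted p under 0.05), where 2.68% of probe sets did and 1.69% did so as higher in MCF10.AT1-R. Those 4 were INSIG1 and INSIG2, higher in MCF10.AT1-R, and SCAP and MBTPS1, lower. No gene passed with no filter (1 at an unadjusted p under 0.05, 0.13% of probe sets passing) or with the low-expression filter alone (1 at an unadjusted p under 0.05, 0.268% passing).

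The 3 genes higher on every MCF10.AT1-R array compare with 12.9% of probe sets above the low-expression limit, and the 2 that were lower with 13.2%. The median log2 change of the 8 genes was -0.10, beside -0.01 over all tested probe sets. In the first fit the filter left limma a single shared SD of 0.34, so the smallest change it called was 1.07 on the log2 scale, above that of all 8 genes. Only 2 and 3 arrays were compared, which limits the precision. Limma's p-values rest on the spread between these arrays, pooled over probe sets. In the first fit that was the shared SD alone and not a gene's own spread.

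**Figure D2:**
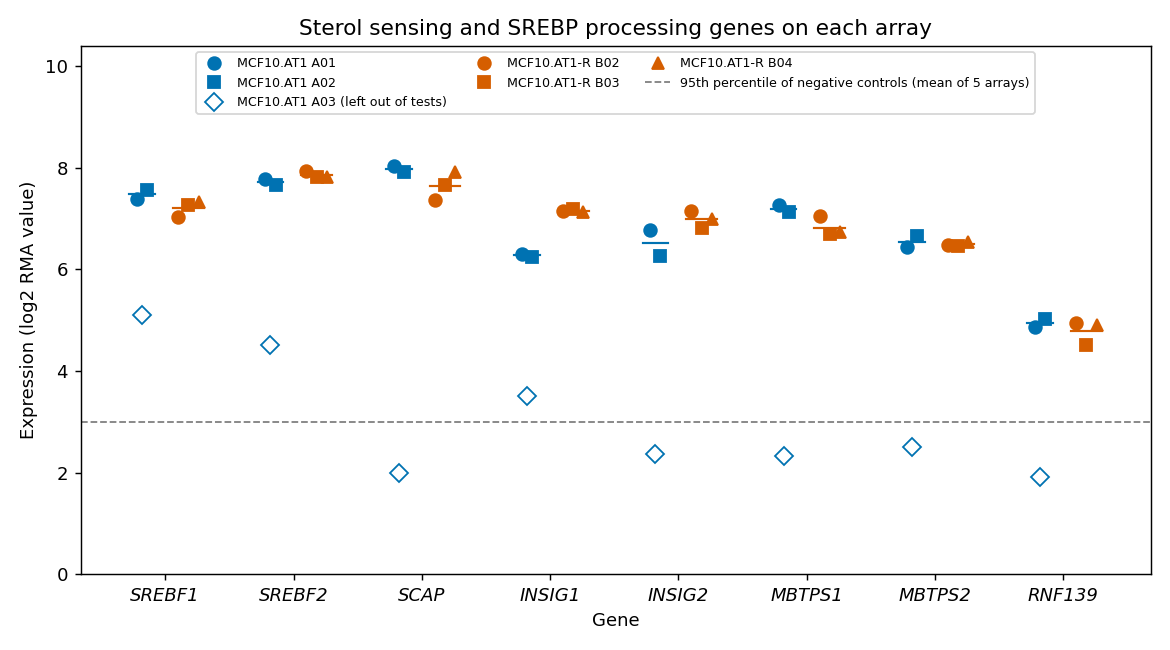
Log2 RMA values of the 8 genes on each array, with MCF10.AT1 in blue and MCF10.AT1-R in orange; short lines are the means of the compared arrays and the dashed line is the 95th percentile of the negative controls, 2.99. The hollow diamonds of A03 lie below all other arrays, and INSIG1 shows the widest gap between the lines.

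The inhibitors INSIG1 and INSIG2 encode small membrane proteins that bind SCAP in the presence of sterols. INSIG1 read 6.31 and 6.25 on A01 and A02 and 7.14, 7.19 and 7.13 on B02, B03 and B04. Every resistant array exceeded both parental ones, with a gap of 0.82 between the nearest arrays and little spread within a line (6.28 ± 0.04, SD, n = 2, against 7.15 ± 0.03, SD, n = 3). The log2 change was 0.88 (SE 0.31, 95% interval 0.26 to 1.49) with the common SD, and limma's adjusted p was 0.205. The residual SD of INSIG1 itself was 0.033, and with the variance following the level the SE was 0.18, the 95% interval 0.51 to 1.24 and limma's adjusted p 0.000209. Leaving out each array in turn kept the log2 change at 0.85 to 0.90, with limma's adjusted p between 0.257 and 0.795 under the common SD and between 0.000279 and 0.0241 when variance followed level. In bulk RNA a change in the share of cells of a kind and a change in RNA per cell cannot be told apart.

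INSIG2 read 6.77 and 6.27 on A01 and A02 and 7.14, 6.82 and 6.99 on B02, B03 and B04. Its MCF10.AT1-R arrays were all higher, but the lowest of them exceeded A01 by 0.05 while the MCF10.AT1 arrays differed from each other by far more. The log2 change was 0.47 (95% interval -0.14 to 1.08, limma's adjusted p 0.769). With the variance following the level the interval was 0.10 to 0.83 (limma's adjusted p 0.233). The change was 0.22 without A02 and 0.72 without A01, the lowest and highest values as each array was left out. The difference between INSIG1 and INSIG2 within an array had a mean of -0.24 in the parent and 0.17 in the resistant line, a difference of 0.41 with an exact two-sided permutation p of 0.2 (0.3 after Benjamini-Hochberg adjustment over 3 pairs of related genes), which is the smallest p that 10 arrangements of the arrays allow.

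The genes of both transcription factors separated the lines narrowly. SREBF1 encodes the SREBP-1 isoforms, which act mainly on fatty acid synthesis, and read 7.38 and 7.57 on A01 and A02 and 7.04, 7.27 and 7.33 on B02, B03 and B04. The MCF10.AT1-R arrays were all lower, the highest by 0.05 from the nearest MCF10.AT1 array, and the log2 change was -0.27 (95% interval -0.88 to 0.34, limma's adjusted p 0.845), or -0.17 without A02. The probe set did not separate the isoforms.

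SREBF2 encodes SREBP-2, which acts mainly on cholesterol synthesis and uptake, and carries the SRE-1 core in the printed promoter. It read 7.79 and 7.67 on A01 and A02 and 7.93, 7.82 and 7.82 on B02, B03 and B04. All MCF10.AT1-R arrays were higher, the nearest by 0.03, and its SD over the 5 arrays was too small to pass the filter on invariant probe sets. In the fit without a filter the log2 change was 0.13 (95% interval -0.29 to 0.55, limma's adjusted p 0.932), or 0.068 without A02. The within-array difference of SREBF1 and SREBF2 changed by -0.40 between the lines (exact permutation p = 0.2, adjusted 0.3).

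SCAP is the escort that senses cholesterol through its sterol-sensing domain. It read 8.04 and 7.91 on A01 and A02 and 7.37, 7.66 and 7.92 on B02, B03 and B04. B04 lay level with A02 and the other MCF10.AT1-R arrays below, and the log2 change was -0.33 (95% interval -0.94 to 0.28, limma's adjusted p 0.835), or -0.19 without B02. With the variance following the level the interval was -0.61 to -0.04 (limma's adjusted p 0.361). The other SCAP probe set went the opposite way, with 5.26 and 5.28 on A01 and A02 and 5.47, 5.59 and 5.66 on B02, B03 and B04, a log2 change of 0.31 (limma's adjusted p 0.838), so the array gave SCAP no single direction.

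The proteases S1P and S2P are encoded by MBTPS1 and MBTPS2. MBTPS1 read 7.26 and 7.13 on A01 and A02 and 7.05, 6.70 and 6.73 on B02, B03 and B04. The MCF10.AT1-R arrays were all lower, B02 by only 0.07 from A02, and the log2 change was -0.37 (95% interval -0.98 to 0.24, limma's adjusted p 0.827). With the variance following the level the interval was -0.72 to -0.02 (limma's adjusted p 0.444). MBTPS2 read 6.44 and 6.66 on A01 and A02 and 6.49, 6.46 and 6.55 on B02, B03 and B04. All MCF10.AT1-R arrays lay between the 2 MCF10.AT1 arrays, and the log2 change in the fit without a filter was -0.05 (95% interval -0.47 to 0.38, limma's adjusted p 0.979). It was -0.16 without A01, 0.060 without A02 and -0.032 without B03. The within-array difference of the proteases changed by -0.32 (exact permutation p = 0.4, adjusted 0.4).

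RNF139, also called TRC8, encodes a ubiquitin ligase of the endoplasmic reticulum with a sterol-sensing domain that binds INSIG proteins. It read 4.86 and 5.03 on A01 and A02 and 4.94, 4.52 and 4.90 on B02, B03 and B04. The lines overlapped, with B03 the lowest array, and the log2 change was -0.16 (95% interval -0.77 to 0.45, limma's adjusted p 0.906). It was -0.024 without B03, -0.072 without A02 and -0.24 without A01.

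**Figure D3:**
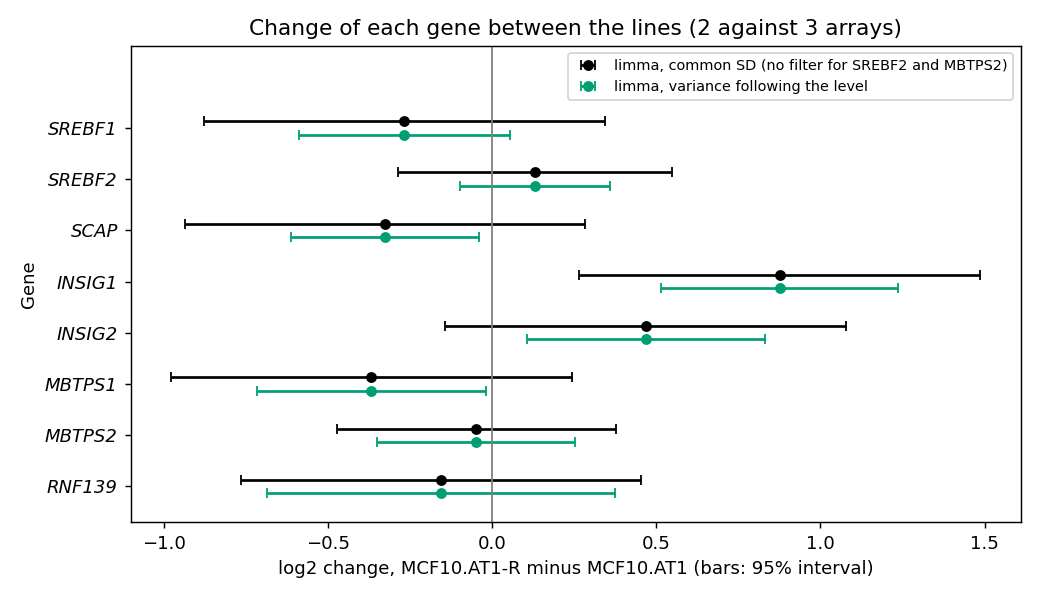
Log2 change of each gene, MCF10.AT1-R minus MCF10.AT1, with 95% intervals from limma under a common SD (black; no filter for SREBF2 and MBTPS2) and with the variance following the level (green). The INSIG1 interval lies above 0 in both, from 0.26 and from 0.51. With the variance following the level the intervals of INSIG2, SCAP and MBTPS1 also exclude 0, though these genes did not pass a false discovery rate of 5%.

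The genes that act on the machinery showed few differences past the test. Of 18 regulators 17 were matched and 12 tested, and with the common SD 0 passed a false discovery rate of 5% in limma (0 at an unadjusted p under 0.05, and 7 with the variance following the level). With the common SD no change under 1.07 was called in any list, and the regulators all lay below it. Their median log2 change was 0.11. On every MCF10.AT1-R array 7 of the 17 were higher and 1 was lower. Of probe sets above the low-expression limit 12.9% were higher in this way and 13.2% lower. With the variance following the level 1 passed, VCP, the ATPase that pulls ubiquitinated proteins out of the membrane, at 0.41 (limma's adjusted p 0.0376; named after its values were seen). The largest increases were those of FBXW7, which marks nuclear SREBPs for degradation, at 0.52, SPRING1, a cofactor of S1P, at 0.51, and USP20, a deubiquitinase, at 0.50. The lowest values were ERLIN1 at -0.39, ERLIN2 at -0.33 and SYVN1, a ubiquitin ligase, at -0.25.

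The COPII coat that carries SCAP and SREBP had 12 genes matched and 8 tested, with 0 past the threshold in either fit of limma (0 at an unadjusted p under 0.05 in both). Its median log2 change was 0.14, from SEC24D at -0.29 to SEC24B at 0.45. Other substrates of S1P and S2P numbered 8, with 4 tested, 0 past the threshold in either fit of limma (0 at an unadjusted p under 0.05 in both) and a median of 0.12. Among them ATF6, a sensor of unfolded proteins, differed by 0.04 and CREB3L2 by -0.47. CREB3L3 and CREB3L4 lay within the negative controls on all 5 compared arrays, as did CREB3L1 on all but B04, where it read 3.60.

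Proteins with a sterol-sensing domain outside the 8 genes numbered 6, with 5 tested, 0 past the threshold with the common SD in limma (1 at an unadjusted p under 0.05) and a median of 0.06. With the variance following the level 1 passed, which is also counted among the SREBP2 targets. PTCH1, the hedgehog receptor, differed by 0.43, and DISP1 by -0.32.

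Some targets of the pathway passed the test, all of them higher in MCF10.AT1-R. Of 14 targets of SREBP2 13 were tested, and 2 rose with the common SD: HMGCS1, which makes HMG-CoA, by 1.57 and MVD, a mevalonate pathway enzyme, by 1.69. With the variance following the level 11 rose and 0 fell. The list's median log2 change was 0.90, beside 0.88 for INSIG1, and 13 of 14 were higher on every MCF10.AT1-R array. Of 11 targets of SREBP1 9 were tested, and 2 rose with the common SD: ACLY, which makes cytosolic acetyl-CoA, by 1.17 (limma's adjusted p 0.0190) and ACSS2, which makes it from acetate, by 1.09 (limma's adjusted p 0.0403). With the variance following the level 5 rose and 0 fell, and the median was 0.42. In limma with no filter 0 of the 11 passed (6 at an unadjusted p under 0.05).

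Neither sterol-activated nuclear receptors nor oxysterol enzymes passed with the common SD. The LXR list had 9 genes, 5 tested and 0 past the threshold in either fit of limma (0 at an unadjusted p under 0.05 with the common SD, 1 with the variance following the level). NR1H3, LXR alpha, differed by 0.14 and NR1H2, LXR beta, by -0.04. ABCA1, the cholesterol exporter and an LXR target, was 1 of 5 genes of the list within the negative controls on all 5 arrays. LPCAT3 had the largest fall of the list, at -0.39, and was lower on every MCF10.AT1-R array. It was the 1 gene at an unadjusted p under 0.05 with the variance following the level (limma's adjusted p 0.208). The 6 oxysterol sources and sensors had 4 tested and 0 past the threshold with the common SD in limma (2 at an unadjusted p under 0.05). With the variance following the level EBP passed, at 0.87, and EBP is better known as an enzyme of cholesterol synthesis. OSBP, an oxysterol-binding protein, differed by 0.65.

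**Figure D4:**
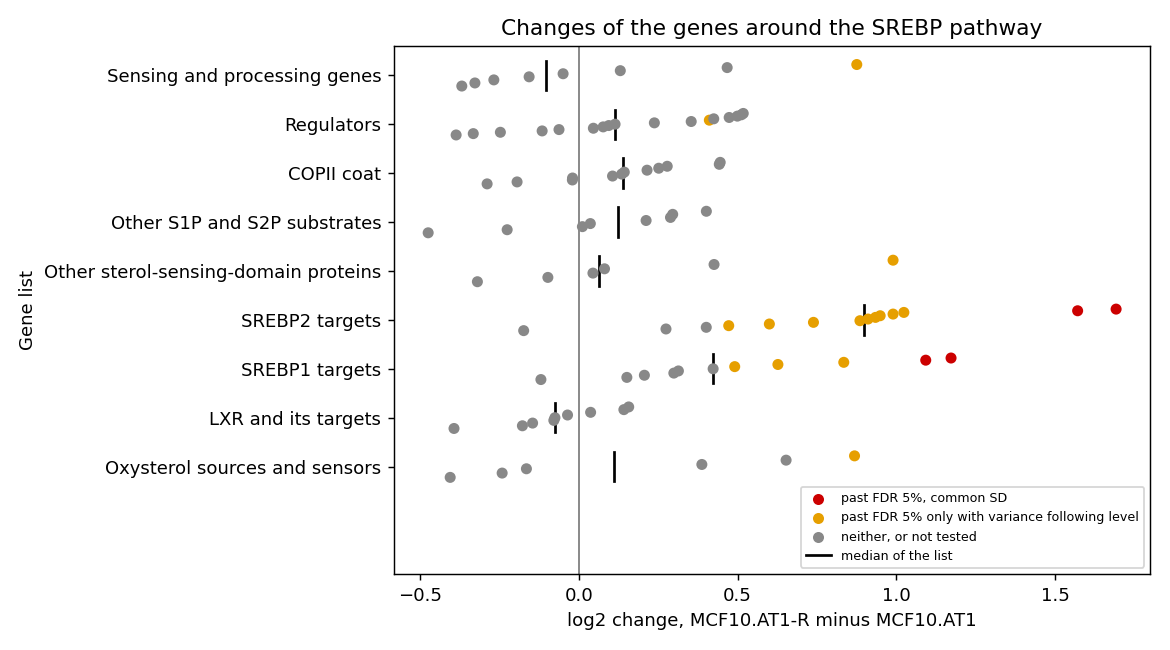
Log2 change, MCF10.AT1-R minus MCF10.AT1, of each gene of the lists, 1 point per gene, with the list's median as a black line and colours for limma's calls at a false discovery rate of 5%. The medians are -0.10 for the 8 sensing and processing genes, 0.90 for the SREBP2 targets and 0.42 for the SREBP1 targets.

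MicroRNAs lie within introns of both SREBP genes, miR-33a in SREBF2 and miR-33b in SREBF1, and are known to act on ABCA1. Their mature sequences are shown because they share a seed, bases 2 to 8, in capitals.
hsa-miR-33a-5p, chr22:41900949-41900969, + strand: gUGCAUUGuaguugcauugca
hsa-miR-33b-5p, chr17:17813897-17813916, - strand: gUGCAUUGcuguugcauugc

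The MIR33A probe set lay within the negative controls on all arrays, at 0.99 to 1.89 on the compared ones, so no difference could be read from it. The MIR33B probe set read 4.39 and 4.71 on A01 and A02 and 4.44, 4.85 and 4.86 on B02, B03 and B04, and the lines overlapped (limma's adjusted p 0.899). It was higher on A03, at 5.37, where the 8 genes were lower and the GC-rich background probe sets averaged 5.38. On the compared arrays that background averaged 3.82 to 4.24, not far under the MIR33B values. Whether MIR33B exceeded background of this kind was not tested. The MIR33A and MIR33B probe sets read the gene's transcript and not the mature microRNA.

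Over the 5 arrays, and among 36080 symbols with 1 tested probe set each, the profile nearest to INSIG1 after centring was that of STXBP2, a partner of syntaxins in secretion (root mean square difference 0.020 on the log2 scale). SLC22A5, the carnitine transporter, followed at 0.024 and EBP at 0.026. The nearest to SREBF1 were PRB1, TUBGCP2 and ECH1, to SREBF2 AL158801.1, MTHFS and NEDD4L, and to SCAP RN7SL504P, RP11-93H24.3 and MIR375. The nearest to INSIG2 were flerklor, forneybo and TSC22D4, to MBTPS1 KCTD15, KCNQ5-IT1 and RP11-301O19.1, to MBTPS2 RP11-295B17.6, flargee and LOC100132182, and to RNF139 RP11-133K1.1, MAGOH and ADRA2B. With 5 points per profile such likeness is a description.

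Markers of cell identity moved between the lines beside these genes. All 7 breast epithelial markers were above the negative controls in both lines, and 5 rose in MCF10.AT1-R with the common SD in limma, KRT5, KRT14, KRT17, CDH1 and TP63, with changes of 1.30 to 4.08. Their summed log2 level was 46.4 to 47.6 in the parent and 58.9 to 59.9 in the resistant line. Of 13 markers of leukocytes, endothelium, fibroblasts and adipocytes 2 fell, DCN and PECAM1, and PTPRC, LYZ, LUM and ADIPOQ lay within the negative controls. The summed log2 level of the 13 was 47.9 to 48.4 in the parent and 43.3 to 45.1 in the resistant line, and COL1A1 read 6.85 to 7.27 over both lines. The median log2 change of the 13 was only -0.06, so the lower sum was no general fall. PLIN1 differed by -1.06 but overlapped between the lines, at 4.53 on A01 and 2.67 on A02. The part of these differences in the values of INSIG1 and the other 7 genes was not tested.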

How the data were processed

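The authors deposited log2 expression values made from Clariom D arrays by RMA (background correction, quantile normalization and probe summarisation) for 6 arrays, with no filter; depth does not apply to arrays. Column names were tied to lines through the study's principal component plot and carry no replicate number. Of 138745 probe sets, 2995 controls were set aside. A transcript probe set was tested if its mean over 5 arrays, without A03, exceeded the median (1.88) and its SD exceeded the lowest 25% (0.18), limits chosen here, which left 51457. The lines were compared in limma (version 3.58.1, R 4.3.3; lmFit, then eBayes), two-sided, with Benjamini-Hochberg adjustment over all tested probe sets. The fit was tested on simulated data. Genes failing the filter were read from a fit without it and called not tested. Pairs of related genes were compared by exact permutation over arrays. Alternatives changed arrays, filters, variance model, normalization, background floor, probe set rule and threshold. The fits with a variance trend and each array left out were chosen after seeing the data. The 8 genes and all lists were chosen with earlier results of these data known, so the targets' changes are no independent support.

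The genes named are the 8, every list gene past the threshold, otherwise up to 3 with the largest increase and 3 with the largest decrease of a list, 10 fixed partners, and the 3 nearest profiles per gene; some list genes are counted and not reported here as single genes. MARCHF6, SREBF1-AS1 and SREBF2-AS1 were not matched by symbol. Sequences are RefSeq's, GRCh38.p14, motifs counted in Python 3.11.15. The build behind the probe sets is not given in the sources used here.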

Additional observations from a re-analysis of the deposited data

Results flagged for a closer look

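A03, the MCF10.AT1 array outside the comparison, still read 3 of the 8 genes above the 95th percentile of its own negative controls, 3.15: SREBF1 at 5.10, SREBF2 at 4.51 and INSIG1 at 3.51. The other 5 genes lay at or under 2.50 there.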

How the results depend on the processing

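Of 164 alternative values of the 8 genes' log2 changes, 149 kept their direction and their side of the threshold, 8 passed it and 7 changed sign. Many of the 164 could not differ in size. A change of filter, variance model, background floor or threshold left each gene's log2 change as it was. In the first fit no change under 1.07 was called, so the side of the threshold was also largely set. The 149 is therefore a count and no measure of stability. All 8 that passed were INSIG1: 0.88 with the variance trend, with the low-expression filter and the trend, and with values raised to the negative control level, and 0.85 to 0.90 with the trend and each array left out. The number of the 8 genes past the threshold was 1 in each of these and 0 in the rest. Adding A03 turned SREBF1 to 0.52, SCAP to 1.67, MBTPS1 to 1.25, MBTPS2 to 1.30, RNF139 to 0.85 and the difference between INSIG1 and INSIG2 to -0.053. SCAP was 0.31 by its other probe set. MBTPS2 ran from -0.16 to 0.060 as each array was left out, 0.060 without A02.

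Probe sets past the threshold numbered 620, against 44 with A03, 182 with the low-expression filter alone, 177 with no filter, 177 with raised values, 1377 with the trend, 1086 with the trend and the low-expression filter alone, and 280 (without A02) to 575 with each array left out, 315 without A01. With the trend the calls were 1 regulator, 1 sterol-sensing-domain protein, 11 SREBP2 targets, 5 SREBP1 targets and 1 oxysterol gene, and with no filter 0 SREBP1 targets were called. The cause of these shifts was not tested. No paired analysis was possible because the array columns carry no replicate number of the labels.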
